A study of Mus musculus with 6 samples.

Results

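The liver secretes a set of abundant plasma proteins whose level rises in inflammation, the positive acute phase proteins. The genes of 9 of them, *Hp*, *Hpx*, *Orm1*, *Orm2*, *Itih3*, *Itih4*, *Serpina3n*, *Cp* and *Lbp*, were followed here in liver without the insulin receptor. All 9 were on the array, of 8251 genes measured by name. They were read by 10 probe sets that the platform annotation gives to 1 of these genes alone, and a further probe set, shared by *Orm1* and *Orm2*, is given beside them. The genes were chosen by name, with earlier results of these data known.

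Liver Insulin Receptor Knockout (LIRKO) mice have the genotype IR flox/flox albumin:CRE +, in which Cre under the albumin promoter deletes the floxed insulin receptor gene in hepatocytes, while other liver cells keep it. Their Flox littermates, IR flox/flox albumin:CRE -, carry the same floxed alleles without Cre. The mice were males of a mixed genetic background, aged 2 to 3 months by the submitters' labels, fed chow and not fasted. Each Affymetrix MG-U74Av2 array took liver RNA pooled from 2 to 3 mice, and there were 3 LIRKO and 3 Flox arrays, so that the spread between arrays is one between pools. Values are the deposited log2 values of robust multichip averaging (RMA), and the small number of arrays limits their precision.

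Acute phase genes are switched on in hepatocytes mainly by interleukin 6, through the transcription factor STAT3, and by interleukin 1, through NF-kB and C/EBP factors, with glucocorticoids adding to both. The proteins have different tasks in plasma. Haptoglobin and hemopexin capture haemoglobin and heme set free from red cells, and ceruloplasmin carries copper and oxidizes iron. Serpina3n is a circulating protease inhibitor, and the inter-alpha-trypsin inhibitor heavy chains belong to a family named for such an inhibitor. Orosomucoids bind drugs and other small ligands, and Lbp presents bacterial lipopolysaccharide to immune cells.

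LIRKO 2 and LIRKO 3 stand apart from the other arrays, and this touches every value below. Over the 10% of probe sets that were brightest on Flox, their median difference from Flox was -1.09 and -0.89, against -0.01 on LIRKO 1. All 10 probe sets of the acute phase genes lie in that group, at percentiles 93.2 to 99.95 of the Flox level. Control transcripts added at hybridization had a median difference from Flox of 1.08 and 0.96 on the same arrays and of -0.25 on LIRKO 1. For *Gapdh*, the 3′ minus the 5′ signal, a sign of RNA quality, was 0.67 on LIRKO 2 and 0.44 on LIRKO 3, against 0.32 on LIRKO 1 and 0.29 to 0.34 on Flox. For *Actb* it was 0.68, 0.54 and 0.47 on LIRKO 2, LIRKO 3 and LIRKO 1 and 0.38 to 0.52 on Flox, while for *Pcx* it went the other way, at 1.54, 1.25 and 1.77, with 1.63 to 1.74 on Flox. The part of these shifts in the results was not tested, and the values of the 9 genes are therefore given for LIRKO 1 alone as well. The targeted gene cannot serve as a check here, since whether its probe set 102146_at lies in the deleted part of *Insr* is not known, and it read 5.37, 5.99 and 6.06 in LIRKO and 5.45, 5.22 and 5.38 in Flox.

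All 10 probe sets read lower on each LIRKO array than on any Flox array. Over the whole array, 14.9% of probe sets had all LIRKO arrays below all Flox arrays, and among those with a Flox level of 9 or more, which holds the acute phase genes, the share was 33.9%. None of the 10 had all LIRKO arrays above all Flox arrays, against 9.84% of all probe sets. The median log2 difference of LIRKO from Flox was -1.53 over the 10 probe sets, against 0.01 over all 12422. None passed an adjusted p of 0.05 in limma. Over all probe sets 0.0564% passed as lower and 0.0725% as higher, 0.129% in all, and among the 10 the adjusted p lay between 0.123 and 0.237. At an unadjusted p under 0.05 all 10 were lower, as were 13.5% of all probe sets, and none of the 10 was higher, against 7.43%.

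**Figure D1:**
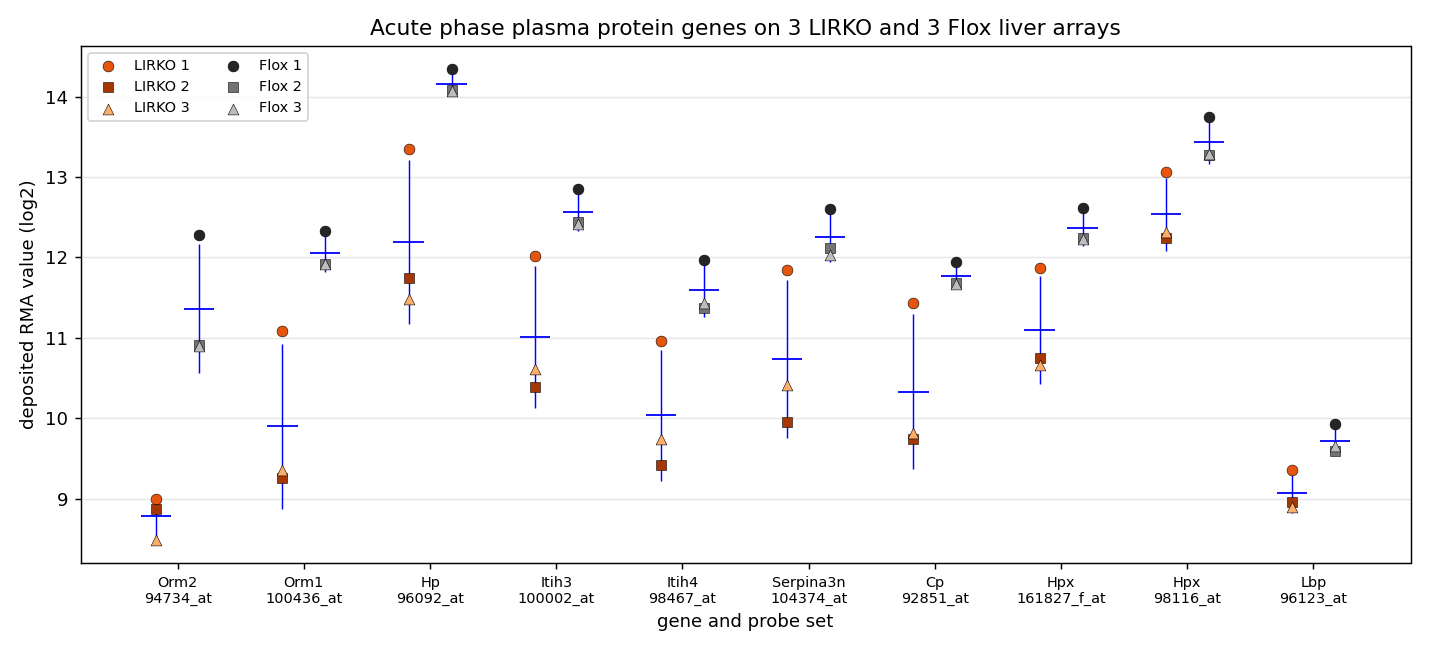
Deposited RMA value (log2, vertical axis) of each of the 10 probe sets (horizontal axis) on the 3 LIRKO arrays, left of each pair, and the 3 Flox arrays, right of it; blue bars are the mean and SD of each group. In every pair the LIRKO arrays lie below the Flox arrays, LIRKO 1 is the highest LIRKO array and Flox 1 the highest Flox array.

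On LIRKO 1, which lacks the shift of bright signals, all 10 probe sets were again below all Flox arrays. This held for 30.9% of all probe sets and for 36.1% of those with a Flox level of 9 or more. Above a level of 13 it held for 62.1% of other probe sets. The differences were smaller, the median being -0.52 on LIRKO 1, while LIRKO 2 had -2.18 and LIRKO 3 had -1.90. With LIRKO 1 as the only LIRKO array, assumed to vary like the Flox arrays, none of the 10 passed (adjusted p 0.0528 to 0.613 from limma, against 0.282% of all probe sets called lower). At an unadjusted p under 0.05, 7 of 10 were lower in that fit, against 4.51% of all probe sets. Without LIRKO 1, all 10 passed as lower, but so did 26.7% of all probe sets.

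Promoters of the acute phase genes are shown for *Orm2*, with the largest mean difference over the 3 LIRKO arrays as deposited, and for the neighbours *Itih3* and *Itih4*, with like differences, so that the letters of known acute phase factors can be read beside the values. RefSeq promoters (build GRCm38.p6, 250 bases before to 50 after the start) were at hand for 6 of the 9 genes, as 7 promoters, with no entry for *Hp*, *Orm1* and *Lbp*. Capitals mark matches to STAT3 (TTCNNNGAA) or C/EBP (TTNNGCAA), searched on both strands. The *Orm2* promoter lies at chr4:63362199-63362498 on the + strand, that of *Itih4* at chr14:30886226-30886525 on the + strand and that of *Itih3* at chr14:30923538-30923837 on the - strand.
Orm2: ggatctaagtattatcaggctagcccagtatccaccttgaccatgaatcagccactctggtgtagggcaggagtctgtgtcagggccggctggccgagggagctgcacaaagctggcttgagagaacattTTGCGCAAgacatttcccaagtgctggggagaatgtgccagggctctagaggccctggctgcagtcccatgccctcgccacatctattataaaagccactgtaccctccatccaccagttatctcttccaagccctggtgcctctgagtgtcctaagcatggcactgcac
Itih4: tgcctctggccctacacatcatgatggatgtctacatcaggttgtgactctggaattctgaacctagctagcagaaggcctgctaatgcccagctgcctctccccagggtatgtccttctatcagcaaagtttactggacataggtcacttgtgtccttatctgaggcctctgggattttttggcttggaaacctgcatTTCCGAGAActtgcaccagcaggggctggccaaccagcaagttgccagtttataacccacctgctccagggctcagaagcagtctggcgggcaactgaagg
Itih3: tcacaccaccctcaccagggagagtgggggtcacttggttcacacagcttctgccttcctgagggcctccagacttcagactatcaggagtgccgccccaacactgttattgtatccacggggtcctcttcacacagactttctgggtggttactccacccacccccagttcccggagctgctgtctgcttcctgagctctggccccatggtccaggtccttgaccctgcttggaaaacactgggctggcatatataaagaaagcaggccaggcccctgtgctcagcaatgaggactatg
The C/EBP letters stand at bases -120 to -113 from the start of *Orm2*, and those of STAT3 at -51 to -43 from the start of *Itih4*, while *Itih3* holds neither. Among the 7 promoters, 1 held STAT3 letters, against 8.30% of 32851 mouse promoters, and 3, of *Orm2*, *Hpx* and *Cp*, held C/EBP letters, against 10.8%. Letters of NF-kB (GGG, any 5 bases, then CC) were in 4 of 7, against 50.8%, and those of a glucocorticoid receptor half-site (TGTTCT) in 3 of 7, against 19.0%. No STAT3 or C/EBP match overlapped a match of another motif. A match is a description of these bases and not a bound site.

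The orosomucoid genes had the largest mean differences of the 9 over the 3 LIRKO arrays. *Orm2* on probe set 94734_at read 9.001, 8.87 and 8.49 on LIRKO 1, 2 and 3, against 12.28, 10.91 and 10.90 on Flox 1, 2 and 3. The 3 LIRKO values lie close together and at least 1.90 below the lowest Flox value, while Flox 1 stands 1.38 above the other Flox arrays. The log2 difference was -2.57 (standard error 0.38, adjusted p = 0.123 from limma), a Flox level 5.96 times that of LIRKO. LIRKO 1 differed from the Flox mean by -2.36, LIRKO 2 by -2.49 and LIRKO 3 by -2.87 (adjusted p = 0.0743 for LIRKO 1 alone). The 0.32 between LIRKO 1 and the mean of the other LIRKO arrays was the smallest of the 10. The order of *Orm2* and *Orm1* is not resolved, since the gap of 0.42 between them is smaller than the standard error of *Orm1*, and without LIRKO 1 *Orm1* had -2.75 and *Orm2* -2.68.

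*Orm1* on probe set 100436_at read 11.08, 9.26 and 9.36 on the LIRKO arrays, against 12.33, 11.92 and 11.92 on the Flox arrays. Here LIRKO 1 lay between the Flox arrays and the other LIRKO arrays, apart from both. The log2 difference was -2.16 (standard error 0.48, adjusted p = 0.237), and it was -0.97 on LIRKO 1 alone (adjusted p = 0.0557). The probe set shared by both genes, 100437_g_at, read 12.28, 9.999 and 9.50 in LIRKO and 13.80, 13.44 and 13.17 in Flox, a difference of -2.88 (adjusted p = 0.237) and of -1.19 on LIRKO 1 alone (adjusted p = 0.0528). *Orm1* and *Orm2* are close copies, so that the division of signal between them is uncertain, and *Orm3*, a further copy named with its values known, overlapped between groups at -0.44.

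Of the scavengers of haemoglobin and heme, haptoglobin had the larger difference. *Hp* on probe set 96092_at read 13.35, 11.74 and 11.48 in LIRKO, against 14.34, 14.08 and 14.06 in Flox. The Flox arrays lie close together, with an SD of 0.15, and LIRKO 1 lies 0.71 under the lowest of them. Its log2 difference was -1.97 (standard error 0.46, adjusted p = 0.237), and on LIRKO 1 alone -0.81 (adjusted p = 0.0528), where the Flox level was 1.75 times that of LIRKO 1.

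Hemopexin was read by a pair of probe sets whose differences were unlike in size. *Hpx* on 98116_at read 13.06, 12.24 and 12.31 in LIRKO and 13.75, 13.28 and 13.28 in Flox, a difference of -0.90 (standard error 0.25, adjusted p = 0.237). On 161827_f_at, a type of probe set that can also read related sequences, it read 11.87, 10.75 and 10.67 in LIRKO and 12.61, 12.24 and 12.23 in Flox, a difference of -1.27 (standard error 0.33, adjusted p = 0.237). On both, the LIRKO and Flox arrays do not overlap, and LIRKO 1 lies nearest to Flox. LIRKO 1 alone gave -0.37 (adjusted p = 0.607) and -0.49 (adjusted p = 0.354).

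The heavy chain genes *Itih3* and *Itih4* had almost the same difference. *Itih3* on 100002_at read 12.02, 10.39 and 10.61 in LIRKO and 12.85, 12.44 and 12.41 in Flox, with a log2 difference of -1.56 (standard error 0.42, adjusted p = 0.237). *Itih4* on 98467_at read 10.96, 9.42 and 9.74 in LIRKO and 11.97, 11.37 and 11.44 in Flox, with one of -1.55 (standard error 0.40, adjusted p = 0.237). LIRKO 1 lay 0.39 and 0.41 under the lowest Flox array in *Itih3* and *Itih4*, and the other LIRKO arrays were far lower. On LIRKO 1 alone the differences were -0.55 and -0.63 (adjusted p = 0.320 and 0.358).

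*Serpina3n*, which encodes an inhibitor of serine proteases that leukocytes release, read 11.85, 9.96 and 10.42 in LIRKO and 12.60, 12.12 and 12.03 in Flox on probe set 104374_at. The gap between LIRKO 1 and the lowest Flox array, 0.18, was the smallest of the 10. Its log2 difference was -1.51 (standard error 0.47, adjusted p = 0.237), and -0.41 on LIRKO 1 alone (adjusted p = 0.613). *Cp*, the ceruloplasmin gene, read 11.44, 9.74 and 9.82 in LIRKO and 11.94, 11.68 and 11.67 in Flox on 92851_at. That is a difference of -1.43 (standard error 0.44, adjusted p = 0.237), and of -0.33 on LIRKO 1 alone (adjusted p = 0.519).

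*Lbp*, the lipopolysaccharide binding protein gene, had the smallest mean difference over the 3 LIRKO arrays as deposited, while on LIRKO 1 alone *Cp* had the smallest and after cyclic loess *Hpx* on 98116_at lay on the other side of 0. On 96123_at it read 9.35, 8.96 and 8.90 in LIRKO and 9.93, 9.59 and 9.65 in Flox, a log2 difference of -0.65 (standard error 0.17, adjusted p = 0.237). Its LIRKO arrays do not overlap the Flox arrays, the gap being 0.24, and LIRKO 1 alone gave -0.37 (adjusted p = 0.480). In the order of the differences from *Orm2* to *Lbp*, the gap between neighbours was smaller than either standard error from *Orm1* down to *Hpx* on 161827_f_at, so that this order is not resolved. The differences between members were not tested.

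The acute phase genes were also set beside other probe sets of like Flox level on each array. Other probe sets with a Flox level of 11 to 12, where *Orm2*, *Itih4* and *Cp* lie, had median differences of 0.02 on LIRKO 1, -1.54 on LIRKO 2 and -1.33 on LIRKO 3 (n = 200). At a level of 12 to 13 these were 0.02, -1.43 and -1.18 (n = 91). Above 13, where *Hp* and *Hpx* 98116_at lie, they were -0.07, -0.94 and -0.96 (n = 29). Set against its own level group, each of the 10 probe sets was lower on LIRKO 1, with differences from the group median of -0.30 for *Hpx* 98116_at to -2.38 for *Orm2*. On LIRKO 2, 9 of 10 were lower than their group, *Lbp* being 0.05 above it, and on LIRKO 3 all 10 were. *Hp* differed from its group by -1.48 and -1.72 on LIRKO 2 and LIRKO 3, and *Hpx* 98116_at by -0.25 and -0.16. These are descriptions of the same arrays, without a test.

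**Figure D2:**
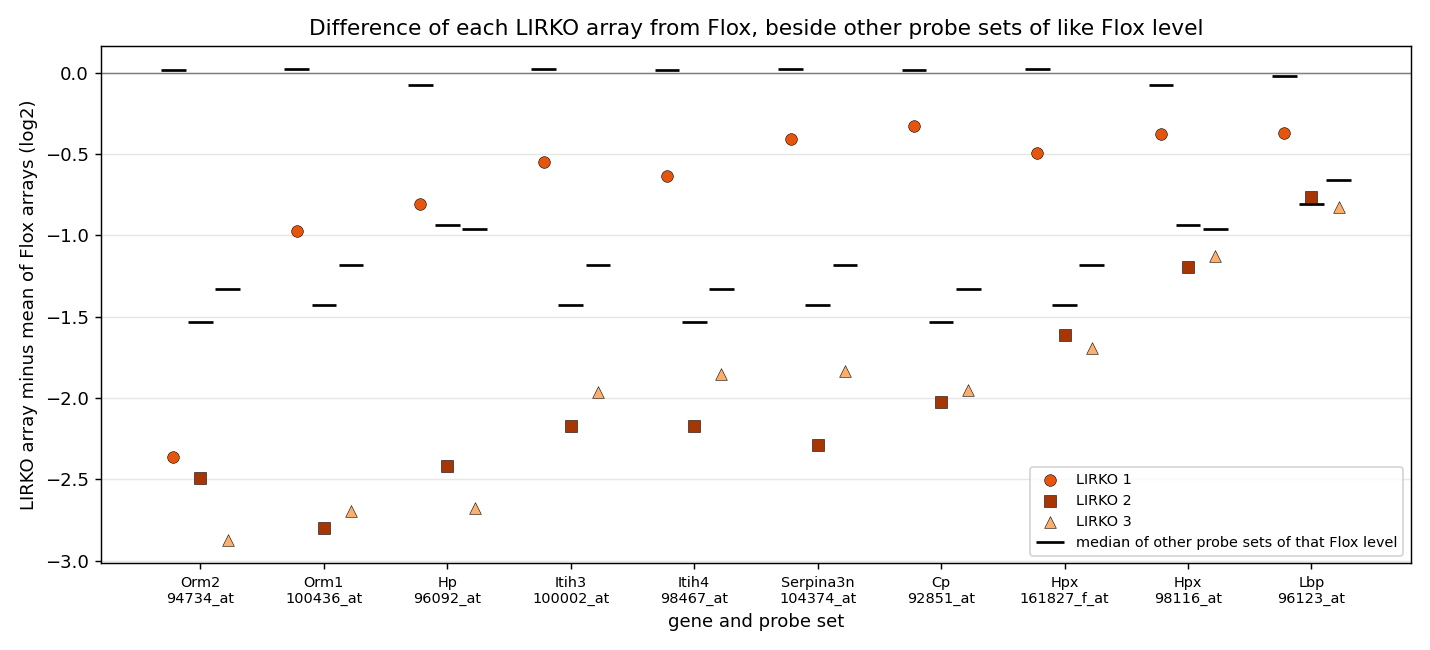
Log2 difference (vertical axis) between each LIRKO array and the Flox mean for the 10 probe sets (horizontal axis), with black bars for the median of the other probe sets of like Flox level on that array. On LIRKO 1 the bars lie near 0 and all points below them; on LIRKO 2 and LIRKO 3 the bars lie between -0.66 and -1.54, and the *Lbp* point of LIRKO 2 alone is above its bar.

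The size of the differences depended on the scaling between the arrays. After quantile normalization the median over the 10 probe sets was -0.95, and after cyclic loess, which is meant to remove a shift that depends on level, it was -0.70. Scaling to the same median gave -1.55. On LIRKO 1 the median was -0.58 after quantile normalization and -0.57 after cyclic loess, larger in size than the -0.52 as deposited. *Orm2* stayed at -2.16 and -1.98, *Orm1* at -1.68 and -1.43, and *Hp* at -1.36 and -0.89. After cyclic loess *Hpx* on 98116_at turned to 0.16 (adjusted p = 0.726), while the other 9 kept a negative difference. At an unadjusted p under 0.05, 8 of 10 were lower there, against 11.9% of all probe sets. *Orm1* came nearest to the adjusted threshold, with an adjusted p of 0.0605 from limma. Cyclic loess also raised other bright genes, the median over 5 hepatocyte markers being -0.46 as deposited and 0.65 after it. The part of this in the values of the 10 probe sets was not tested.

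**Figure D3:**
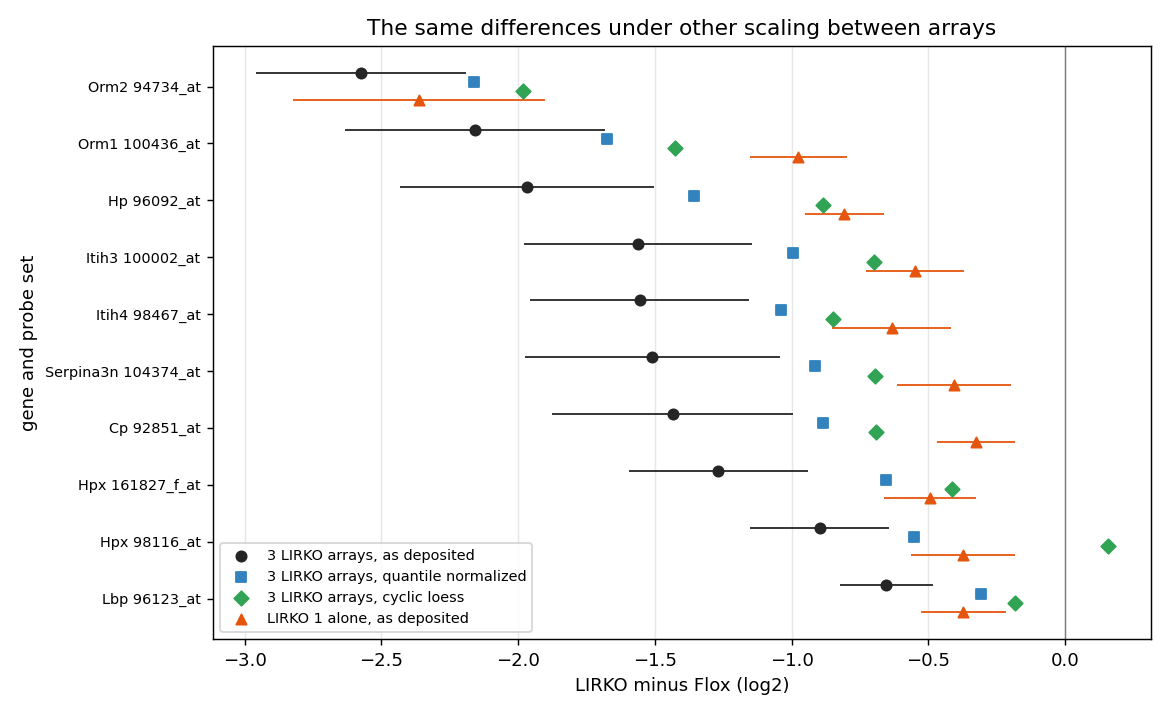
Log2 difference of LIRKO from Flox (horizontal axis) for each probe set (vertical axis) with the 3 LIRKO arrays as deposited (black, with standard error), after quantile normalization (blue) and after cyclic loess (green), and with LIRKO 1 alone (orange, with standard error). *Hpx* 98116_at after cyclic loess, at 0.16, is the only point above 0.

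Flox 1 was the highest Flox array for all 10 probe sets, against 26.4% of all probe sets. It exceeded the mean of Flox 2 and Flox 3 by 0.26 for *Cp* and *Hp* up to 1.38 for *Orm2*, with a median of 0.42. Flox 2 and Flox 3 were close to each other. Without Flox 1 the median log2 difference of LIRKO from Flox was -1.36, and that of LIRKO 1 alone was -0.39. Over 17 other positive acute phase genes, Flox 1 had a median difference from Flox 2 and Flox 3 of 0.18. Of these *Saa3*, a serum amyloid A gene, read 11.95, 9.23 and 9.28 on Flox 1, 2 and 3, and *Lcn2* 11.36, 9.92 and 9.85. *Cd14* was lowest on Flox 1, at 8.08 against 8.26 and 8.20. These genes are named with their values known. Macrophage markers lay the other way on Flox 1, with a median difference from Flox 2 and Flox 3 of -0.52 over 5 markers. What sets this pool apart was not tested.

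Among other positive acute phase genes, 3 of 17 measured passed as lower in LIRKO and none as higher. *Saa2*, a serum amyloid A gene read here by 103465_f_at, had a log2 difference of -4.45 (adjusted p = 0.00145), *Lcn2*, which encodes lipocalin 2, one of -4.46 (adjusted p = 0.0257), and *Apcs*, the serum amyloid P gene, one of -2.98 (adjusted p = 0.0403). On LIRKO 1 alone these were -4.39, -4.44 and -2.36 (adjusted p = 4.36e-05, 0.00562 and 0.00251 from limma). There *Lrg1* at -1.34 and *Saa4* at -0.96, named with their values known, also passed as lower (adjusted p = 0.0150 and 0.0195). *Il1rn*, which encodes the interleukin 1 receptor antagonist, was on the other side at 1.16 (adjusted p = 0.0643), and on LIRKO 1 alone it passed as higher at 1.19 (adjusted p = 0.0118). The median of the 17 was -0.81, and -0.28 on LIRKO 1, against -1.55 and -0.55 for the 9 genes followed here, each by its brightest probe set. In 10 of these 17 and in 9 of 9 the LIRKO arrays lay below the Flox arrays, against 14.9% of all probe sets. LIRKO 1 lay below all Flox arrays for 10 of the 17 and for 9 of 9, against 30.9% of all probe sets. With a Flox level of 9 or more these shares were 33.9% and 36.1%. *Hamp*, named with its values known, had LIRKO 1 above Flox at 0.33 and a difference of -0.64 over the 3 LIRKO arrays.

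Further lists of liver genes for secreted proteins were read on the same arrays. They are not free of acute phase genes, since the first holds genes of alpha-1-antitrypsin and *Serping1*, the C1 inhibitor, and the second *Cfb*, complement factor B. Genes of serine protease inhibitors had a median of -0.94 over 8 measured genes, with LIRKO 1 at -0.11. Other abundant plasma proteins had one of -0.69 over 13, with LIRKO 1 at 0.07. Negative acute phase genes, which inflammation lowers, had one of -0.52 over 8, with LIRKO 1 at -0.0046. With all 3 LIRKO arrays none of these genes passed in either direction, and on LIRKO 1 alone *Serpina6*, a negative acute phase gene named with its values known, passed as higher at 0.92 (adjusted p = 0.0120). LIRKO 1 lay below all Flox arrays for 5 of 8, 6 of 13 and 3 of 8 genes of these lists. The share was 30.9% over all probe sets and 36.1% over those with a Flox level of 9 or more. The inhibitors with the smallest p were *Serpina10*, *Serping1*, *Serpina1e* and *Serpind1*, at -1.49, -1.48, -0.78 and -1.05, with LIRKO 1 at -0.60, -0.29, -0.18 and -0.17. Of the other abundant plasma proteins these were *Apoa4*, *Ttr*, *Ambp* and *Vtn*, at -1.58, -1.88, -1.51 and -1.53, much like the acute phase genes. LIRKO 1 was at -0.98, -0.61, -0.48 and -0.39 for them, while *Cfb* was on the other side at 1.42, with LIRKO 1 at 0.09. *Alb*, the albumin gene, read 14.17, 14.00 and 14.05 in LIRKO and 14.23, 14.18 and 14.25 in Flox (difference -0.15, adjusted p = 0.409, with -0.05 on LIRKO 1 and 1.07 after cyclic loess), and *Ttr*, transthyretin, 10.93, 8.78 and 9.26 in LIRKO and 11.70, 11.43 and 11.49 in Flox (difference -1.88, adjusted p = 0.237, and -0.61 on LIRKO 1). *Alb* is named for its role, with its values known. Whether the lists differ from one another was not tested.

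**Figure D4:**
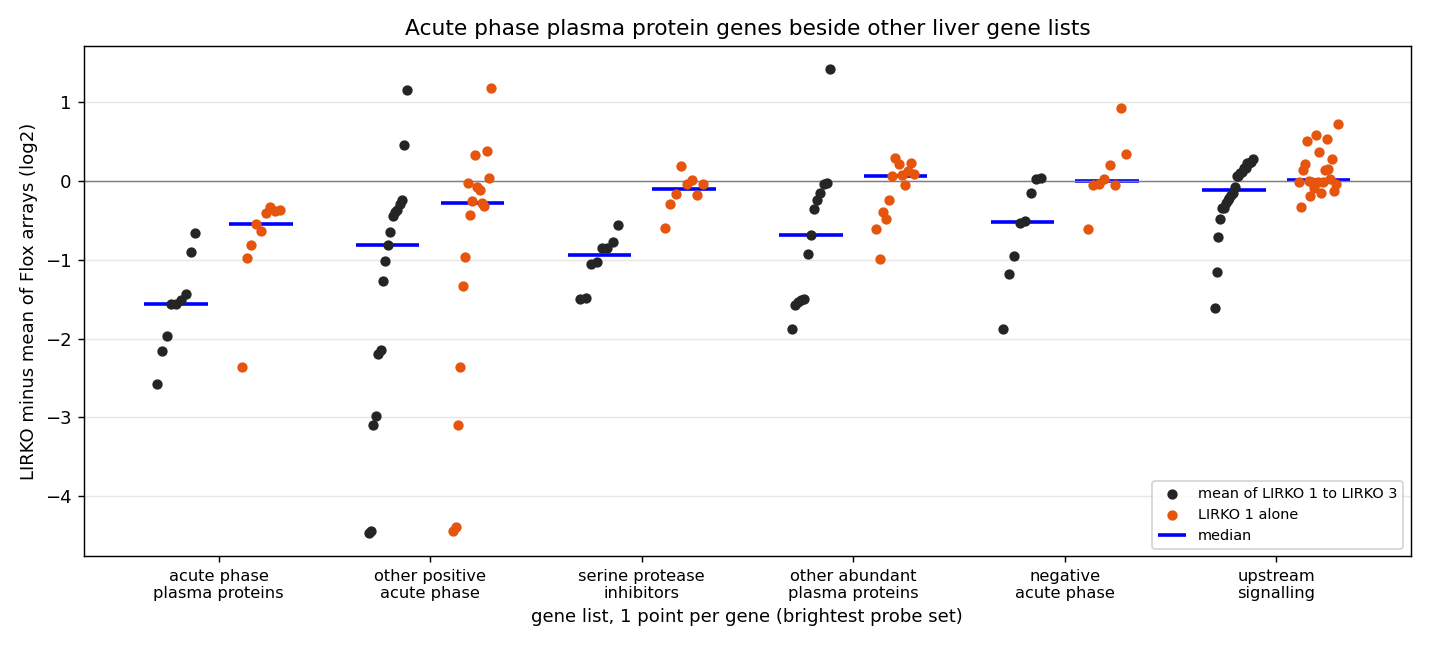
Log2 difference from the Flox mean (vertical axis) of the measured genes in 6 lists (horizontal axis), as the mean of the 3 LIRKO arrays (black) and on LIRKO 1 alone (orange), with blue bars for medians. The acute phase plasma protein genes have medians of -1.55 and -0.55 and all lie below 0, while the medians of negative acute phase genes are -0.52 and -0.0046.

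Of the inter-alpha-trypsin inhibitor family outside the members, none of 5 genes passed. *Ambp*, which encodes bikunin, the light chain that *Itih3* protein is joined to, had a log2 difference of -1.51 (adjusted p = 0.237) with LIRKO 1 at -0.48, *Itih1* had -1.34 (adjusted p = 0.237) with LIRKO 1 at -0.37, and *Itih2* had -0.34 (adjusted p = 0.504) with LIRKO 1 at 0.38. *Tnfaip6*, whose product moves heavy chains onto hyaluronan, had 0.15 with LIRKO 1 at -0.10, and *Itih5* had 0.15 with LIRKO 1 at 0.39. *Tnfaip6* read among the dimmest probe sets, with a mean of 2.87 on Flox, at percentile 0.74 of the Flox level. For *Itih2*, *Tnfaip6* and *Itih5* the groups overlap. Among genes listed as partners of the member proteins, by binding or by task, none of 8 passed. *Hba-a1*, an alpha globin gene whose product haptoglobin binds, had -0.89 (adjusted p = 0.253), *Hmox1*, heme oxygenase, 0.23 (adjusted p = 0.426), *Lrp1*, the receptor that clears heme with hemopexin, -0.79 (adjusted p = 0.237), and *Cd14*, to which Lbp hands lipopolysaccharide, 0.45 (adjusted p = 0.239). *Atp7b*, the pump that loads copper onto ceruloplasmin, had 0.25 (adjusted p = 0.275 from limma), and *Heph*, *Elane* and *Ctsg* had 0.02, -0.18 and 0.32. *Heph* and *Ctsg* were dim, at percentiles 2.58 and 6.66 of the Flox level. On LIRKO 1 the differences were smaller in size for *Hba-a1* at 0.02, *Hmox1* at 0.14, *Lrp1* at -0.14, *Cd14* at 0.04 and *Atp7b* at 0.11, and none of the 8 passed there.

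Upstream of the acute phase, none of 22 measured signalling genes passed, and their median was -0.11, with LIRKO 1 at 0.01. Not all were bright, and *Il6*, named with its values known, lay at percentile 4.04 of the Flox level. The 4 with the smallest p were *Cebpa*, a C/EBP factor of the hepatocyte, at -1.16, *Lifr*, a receptor of the interleukin 6 family, at -1.62, *Hnf4a*, a hepatocyte transcription factor, at -0.71, and *Rela*, an NF-kB subunit, at -0.21 (adjusted p = 0.237 to 0.303). On LIRKO 1 they were at -0.33, -0.02, 0.14 and -0.09. *Stat3* itself read 9.15, 8.98 and 8.91 in LIRKO and 9.18, 9.17 and 9.13 in Flox, a difference of -0.15 (adjusted p = 0.433) between overlapping groups, with LIRKO 1 at -0.01. *Stat3* is named for its role, with its values known.

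Profiles of other probe sets over the 6 arrays were compared with the mean profile of the 9 genes, each by its brightest probe set. Most like it were *Calu* on 161208_r_at, with a Pearson r of 0.9991, *Capn10* and *Erp29*, each with 0.9981, *Lman2* with 0.9974 and *Serpina10* with 0.9971. Their log2 differences were -0.82, -0.39, -0.97, -1.11 and -1.49, with LIRKO 1 at -0.41, -0.17, -0.39, -0.46 and -0.60, and none passed (adjusted p = 0.237 from limma). Of 10823 other probe sets with 1 gene, 848 had an r of 0.95 or more. The arrays share their scaling and the shift of LIRKO 2 and LIRKO 3, so that r is a description only.

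Defining markers of hepatocytes were bright in both groups, with a median level of 5 measured markers of 12.79 to 13.46 on the LIRKO arrays and 12.99 to 13.13 on the Flox arrays. None passed, and their median difference was -0.46, with LIRKO 1 at 0.03. Of markers of other cells, none passed among 5 of macrophages, 6 of neutrophils, 4 of lymphocytes, 3 of bile duct cells, 4 of stellate cells and fibroblasts, 2 of adipocytes and 1 of the pancreas. Their median log2 differences lay between -0.27 for the pancreas marker and 0.15 for stellate cells and fibroblasts. The markers of stellate cells and fibroblasts were unlike, from -0.90 for *Col3a1* to 0.45 for *Des*, both named with their values known. On LIRKO 1 the medians lay between -0.20 for stellate cells and fibroblasts and 0.36 for macrophages. Of 3 erythroid markers none passed with all 3 LIRKO arrays, with a median of -0.89 and -0.14 on LIRKO 1. One of them, *Alas2*, which encodes the heme synthesis enzyme of red cell precursors and is named with its values known, had -1.79 with all LIRKO arrays below all Flox arrays, and passed on LIRKO 1 alone at -0.92 (adjusted p = 0.0150). The part of blood cells in the results was not tested. In whole liver RNA, fewer cells of a type and less RNA per cell cannot be told apart.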

How the data were processed

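The authors deposited 1 table of RMA log2 values for the 6 arrays, 1 value per probe set. The SD over probe sets was 1.72 and 1.78 on LIRKO 2 and LIRKO 3 and 1.96 to 2.01 on the other arrays, so the 6 columns do not share 1 distribution, as quantile normalization of all 6 together would give. Of its 12488 probe sets, 66 controls were left out and 12422 tested. Gene names came from the platform annotation, updated by Entrez ID: 10833 probe sets had 1 symbol, 396 several and 1193 none. LIRKO was compared with Flox in limma 3.58.1 (R 4.3.3; lmFit, eBayes), two-sided, with Benjamini-Hochberg adjustment over all 12422 and a threshold of 0.05. The fit was tested on simulated data. The labels number the arrays, but nothing says that equal numbers share animals. P-values measure the spread between pools only, and an exact permutation test of 3 against 3 cannot go below 0.1. Genes named were all members, all partners, up to 4 with the smallest p in each other list, and the 5 most like the members. Others are marked as named with their values known. Lists were described by their brightest probe set per gene. The members and lists were chosen with earlier results of these data known. Alternatives were other scalings, filters, tests and left-out arrays. Scalings and left-out arrays for the median of LIRKO 1 were added after seeing the data.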

Additional observations from a re-analysis of the deposited data

Results flagged for a closer look

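Control transcripts added at hybridization, which no comparison used, read above Flox on LIRKO 2 and LIRKO 3. Their median difference from the Flox arrays was 1.08 on LIRKO 2, where 9 of 9 were above, and 0.962 on LIRKO 3, where 8 of 9 were. It was -0.25 on LIRKO 1 and -0.23 to 0.18 on the Flox arrays, of which Flox 1 and Flox 2 also had 8 of 9 above the Flox mean.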

How the results depend on the processing

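Of 14 alternatives, 10 could change the size of the differences of the 10 probe sets, while 4 change only the test or its adjustment. Under the 10, 99 of 100 differences were negative. Leaving out arrays could not turn a sign, since every LIRKO array lay below every Flox array. Only another scaling could do so. *Hpx* on 98116_at reversed to 0.16 after cyclic loess, and the cause was not tested. The number of all probe sets passing was 16, against 40 after cyclic loess, 0 by the methods' t-test, given there for differences between groups and not for the arrays, after Benjamini-Hochberg (728 unadjusted, 2 of the 10) and 90 with LIRKO 1 alone. Leaving out 1 array gave 2 to 6095, and 0 to 10 of the 10 acute phase probe sets, with 6095 and 10 without LIRKO 1. Their median was -1.53, against -0.52 with LIRKO 1 alone and -2.04 to -1.19 when 1 array was left out. The median of LIRKO 1 was -0.57 after cyclic loess, -0.58 after quantile normalization and -0.59 to -0.39 without 1 Flox array. A replicate block left 11 probe sets passing, and no call of the 10 changed. Adjusted p for the 10 was 0.0900 to 0.156 from limma with the block, against 0.123 to 0.237 without it. Deviations of arrays with the same number correlated at 0.32, 0.40 and 0.09, and those of arrays with different numbers at -0.37 to 0.17. The main fit did not pair the arrays, since no label says that equal numbers share animals. Whether they are paired was not tested. Signal well above background could not be judged from these values.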
